A study of Mus musculus with 6 samples.

Results

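The 10 genes described here encode the pumps, release channels, sensors and entry channel that move calcium into and out of the endoplasmic reticulum (ER): Atp2a2 and Atp2a3, Itpr1, Itpr2 and Itpr3, Stim1 and Stim2, Orai1, Saraf and Tmco1. They were chosen by gene symbol for what their proteins do, and all 10 had a row among the 52550 genes of the deposited count table. RNA was sequenced from AT2 cells (alveolar epithelial type II), which make surfactant, sorted from dispase-digested lungs of C57BL/6 mice as CD45- and EPCAM+ cells. The 3 knockout-labelled libraries carry the genotype label Sftpc+/creERT2; Grp78f/f with Tmx, and the 3 control libraries the same alleles without Tmx, the label's abbreviation, read here as tamoxifen. Both groups therefore shared the creERT2 allele at Sftpc, which confines recombination to cells that express surfactant protein C, and both floxed copies of Grp78. The labels give 10 days after a Tmx injection for all 6 libraries, controls included, while the controls' genotype label says without Tmx, and which of these holds is not known. The labels do not tie the libraries to separate animals, and p-values then measure only a spread between samples that may be technical.

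The ER is the main calcium store of most cells. Calcium is pumped into it by the SERCA ATPases, leaves it through inositol trisphosphate (IP3) receptors when receptors at the cell surface activate phospholipase C, and is held in the lumen by calcium-binding chaperones, among them Grp78 itself. When the store empties, the STIM sensors in the ER membrane open ORAI channels in the plasma membrane, which is called store-operated entry. In AT2 cells, calcium release through IP3 receptors is known as a trigger of surfactant secretion.

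Library totals ran from 110770711 to 128129307 counts with the knockout label and from 131235053 to 149520306 in controls. Hspa5, the gene of Grp78, stood at 9262, 9180 and 3809 CPM (counts normalised to the TMM-scaled library size) in knockout-labelled libraries 1, 2 and 3, against 1355, 1289 and 925 CPM in controls 1, 2 and 3. That is a log2 fold of 2.64 with an SE of 0.361 (edgeR adjusted p = 0.00208), a rise of the gene that the label names as lost, and gene counts cannot show whether the floxed exons were removed. Directions below are therefore those between libraries as labelled. Sftpc was at 14500 to 18600 CPM in knockout-labelled libraries and 43700 to 54800 CPM in controls, and Epcam at 148 to 161 and 185 to 197 CPM, so both defining transcripts of the sorted cells were abundant throughout. All 10 AT2 markers listed nevertheless fell, with sums of 51920 to 68010 CPM in knockout-labelled libraries and 139500 to 163500 CPM in controls, or 37500 to 49400 and 95800 to 109000 CPM without Sftpc. This fall went in the same direction as those of the calcium genes called below, and its part in them was not tested. Among defining markers of other cells, Ptprc (leukocytes) was at 0.963, 1.29 and 11 CPM in knockout-labelled libraries 1, 2 and 3 and 1.05 to 2.07 CPM in controls. Pecam1 (endothelium) was at 78.7, 84.4 and 49.3 CPM in the same libraries and 50.7 to 56.9 CPM in controls. Col1a1 (fibroblasts) was at 297 to 404 CPM with the knockout label and 36.8 to 151 CPM in controls. Leukocyte markers summed to 1855 to 1963 CPM with the knockout label and 2722 to 3122 CPM in controls, nearly all of it Lyz1, which fell and was the one called gene of that list (log2 fold -0.69, edgeR adjusted p = 0.00739). Other leukocyte markers summed to 116 CPM in knockout-labelled library 3, which stood apart from the other knockout-labelled libraries (8.90 and 9.25 CPM) and from controls (8.17 to 17.8 CPM). Fibroblast and smooth muscle markers, of which 9 of 10 rose and 0 fell (0 also at an unadjusted p under 0.05), summed to 1194 to 1315 CPM with the knockout label and 222 to 572 CPM in controls. Airway epithelium markers summed to 34020, 36140 and 32540 CPM in knockout-labelled libraries 1, 2 and 3. In controls 1, 2 and 3 they summed to 57190, 54440 and 31320 CPM, so control 3 stood apart from the other controls. Without Scgb1a1 the sums were 5630 to 6190 CPM with the knockout label and 5180 to 8860 CPM in controls. The part of airway cells in the levels below was not tested.

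Of the 10 calcium genes, all 10 were tested, 5 fell and 0 rose in the knockout-labelled libraries (edgeR quasi-likelihood test, adjusted p under 0.05 over 18849 genes). Among all genes tested, 36.8% were called, 18% higher and 18.8% lower. Itpr2, Itpr1, Atp2a3, Orai1 and Tmco1 fell, and the 5 genes not called were Itpr3, Stim1, Stim2, Atp2a2 and Saraf. The median log2 fold was -0.28 over the 10 genes and 0.016 over all genes tested. At an unadjusted p under 0.05, 7 were lower and 0 higher, while DESeq2 called 1 higher and 5 lower, and limma-voom 0 higher and 4 lower. With the replicate number as a block, 2 were higher and 6 lower. Without both libraries numbered 3, 2 were higher and 8 lower, among 10581 of 18895 genes called. With 1 library left out, the number lower ran from 1 (without control 2 or knockout-labelled library 2) through 2 (without knockout-labelled library 1) and 3 (without control 1) to 6, and without knockout-labelled library 3 the number higher was 2. Scaling by library size alone moved the median of all genes up by 0.26 on the log2 scale and gave 2 higher and 1 lower, and upper-quartile factors gave 3 lower.

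**Figure D1:**
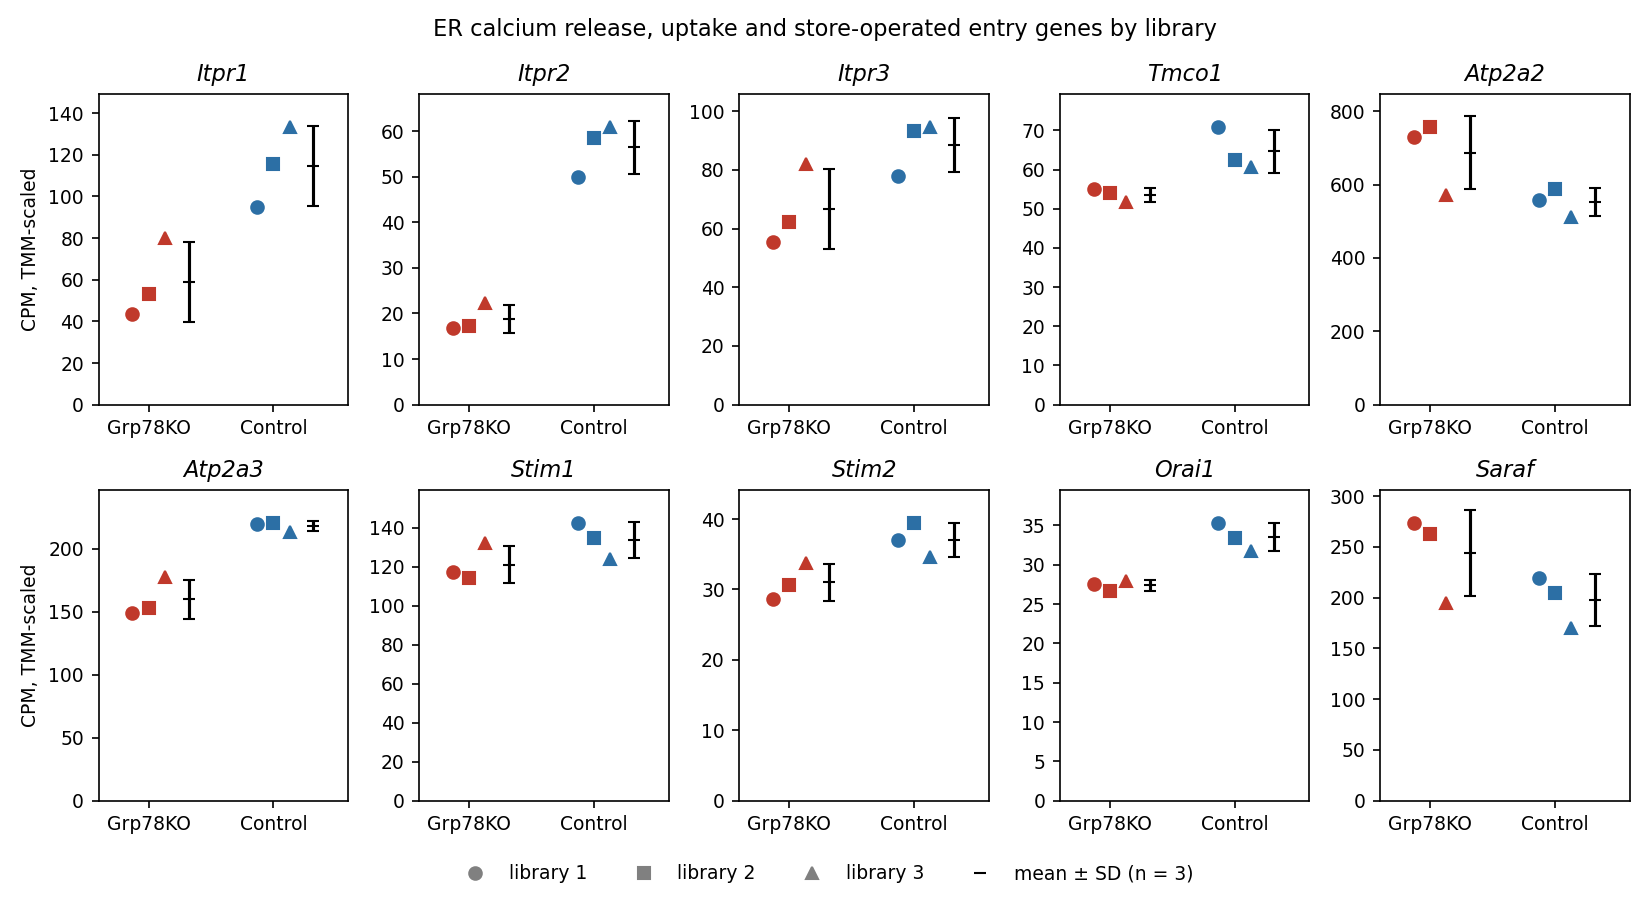
CPM of each of the 10 genes (y axis, TMM-scaled, from 0) in the 3 knockout-labelled libraries (red, left) and the 3 controls (blue, right), with the mean and SD beside each group. The groups are separate for 6 genes, all lower with the knockout label, and Itpr2 has the largest fold between the groups, with 16.9 to 22.4 CPM against 49.8 to 60.9 CPM.

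The groups did not overlap for 6 of the 10 genes, all lower in the knockout-labelled libraries, where 26.6% of all genes tested were lower without overlap, 25% higher, and 51.6% were separate in either direction. Library 3 was the knockout-labelled library closest to the control mean for 9 of the 10 genes, the exception being Tmco1, whose closest was library 1. The same held for 53.4% of all genes tested and 67.8% of called genes. Within the knockout-labelled group, Hspa5 was highest in libraries 1 and 2 and lowest in library 3, where it still lay above every control.

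IP3 receptors are tetrameric channels that release calcium from the ER when IP3 binds, and the 3 mouse genes encode subtypes that differ in their sensitivity to IP3. Itpr2 encodes the subtype with the highest affinity for IP3. It lies on chromosome 6 (146108299 to 146502223, minus strand, mm10) and was at 16.9, 17.3 and 22.4 CPM in knockout-labelled libraries 1, 2 and 3, against 49.8, 58.5 and 60.9 CPM in controls 1, 2 and 3. Every knockout-labelled library lay far below every control. The fall was 2.99-fold (log2 fold -1.58, SE 0.138, edgeR adjusted p = 0.000561), the largest change among the 10 genes. It was the one member called under every alternative run, with log2 folds of -1.72 to -1.51 when 1 library was left out and -1.32 with library-size scaling.

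Itpr1 encodes the subtype best known from Purkinje neurons and smooth muscle. It lies on the same chromosome (108213096 to 108551109, plus strand, mm10), and was at 43.4, 53.1 and 80.2 CPM in knockout-labelled libraries 1, 2 and 3, against 94.9, 116 and 133 CPM in controls 1, 2 and 3. The groups were separate, but knockout-labelled library 3 and control 1 were close. The log2 fold was -0.96 with an SE of 0.231 (edgeR adjusted p = 0.0163), a fall to 0.514 of the control level. The call ended without control 2 (edgeR adjusted p = 0.052), without knockout-labelled library 2 (edgeR adjusted p = 0.0631) and also with library-size scaling (log2 fold -0.70, edgeR adjusted p = 0.0776). The mixed list of fibroblast and smooth muscle markers summed higher in the knockout-labelled libraries. Of its 10 genes, 9 were called higher, Acta2, Tagln and Des among them, and Myh11 was the one gene not called. These genes were named after their values were seen. In library 3, where leukocyte markers other than Lyz1 were highest, Itpr1 was nearest the controls, and without that library its log2 fold was -1.25. The part of other cell types in these levels was not tested.

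Itpr3, whose protein is the IP3 receptor typical of secretory epithelia (chromosome 17, 27057304 to 27122223, plus strand, mm10), was at 55.6, 62.4 and 82.0 CPM in knockout-labelled libraries 1, 2 and 3, against 78.0, 93.1 and 94.7 CPM in controls 1, 2 and 3. Knockout-labelled library 3 lay above control 1, so the groups overlapped. The log2 fold of -0.41 (SE 0.155) missed the threshold (edgeR adjusted p = 0.0729), and passed it with the replicate block (edgeR adjusted p = 0.0151), without knockout-labelled library 3 (log2 fold -0.59, edgeR adjusted p = 0.00593) and without both libraries numbered 3 (edgeR adjusted p = 0.000893).

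The shares of the 3 genes in their family were computed from CPM per kilobase of merged exons. A share within a library does not depend on how libraries are scaled, but it does depend on the gene lengths used. Merged exons span 18319 bases for Itpr1, and its longest transcript has 9870. Itpr3 made up 63.7%, 63.0% and 60.7% of IP3 receptor transcript in knockout-labelled libraries 1, 2 and 3, against 50.3%, 50.1% and 47.9% in controls 1, 2 and 3. Itpr2 made up 11.8%, 10.6% and 10.1% with the knockout label, against 19.6%, 19.2% and 18.8% in controls. Itpr1 held 24.5%, 26.4% and 29.2%, against 30.1%, 30.7% and 33.3%. None of the 3 shares overlapped between the groups, knockout-labelled library 3 included. An exact permutation test of 3 libraries against 3 cannot go below p = 0.10 (two-sided), so the shares are given without a test. Summed over the family, IP3 receptor transcript was 9.67, 11 and 15.0 CPM per kb in knockout-labelled libraries and 17.2, 20.6 and 21.9 CPM per kb in controls. The mean of the summed level with the knockout label was 0.597 of the control mean. In RNA from a bulk sort, fewer cells that carry these channels and less RNA of them per cell cannot be told apart.

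**Figure D2:**
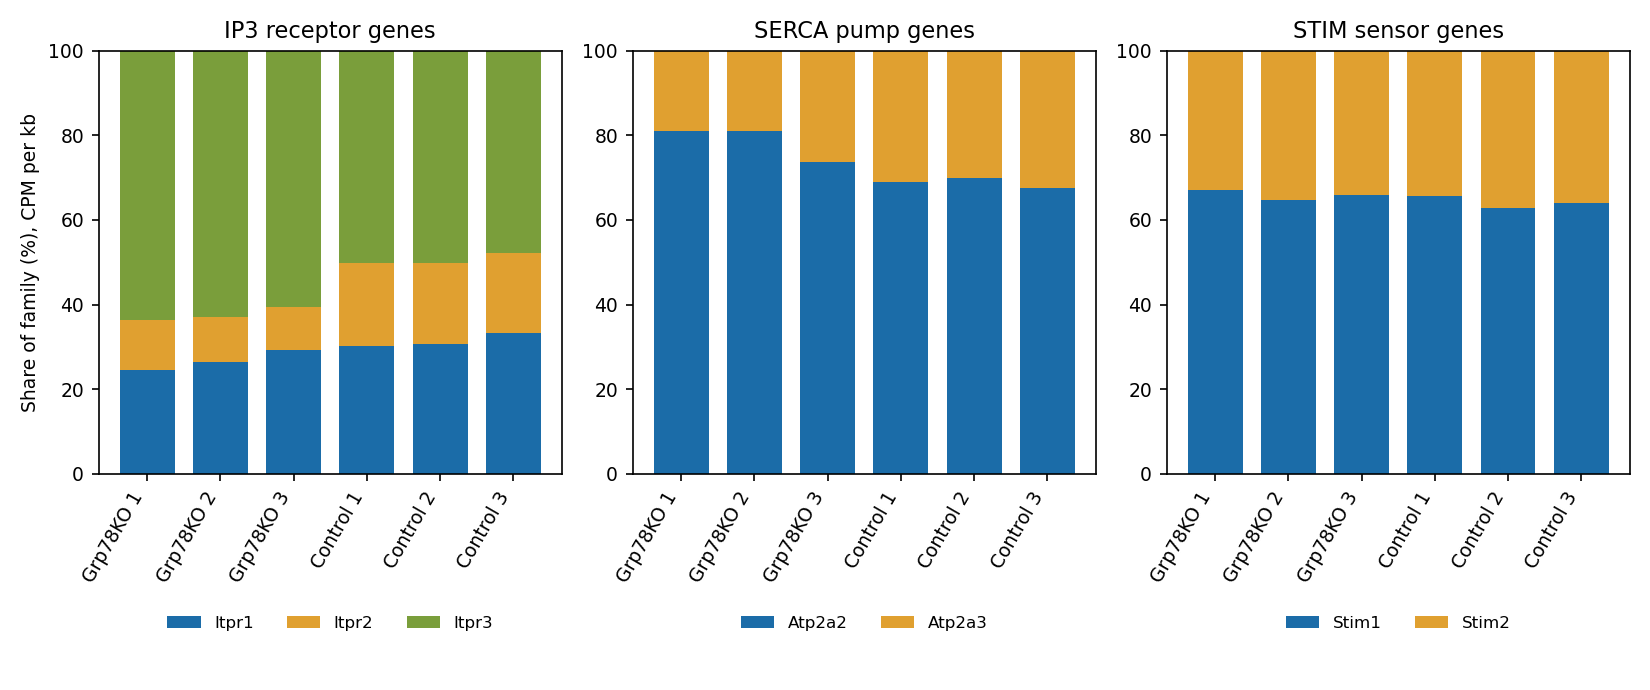
Share of each gene (y axis, percent of the summed CPM per kb of its family) among IP3 receptor, SERCA and STIM genes, one bar per library with knockout-labelled libraries on the left. The Itpr3 segment takes 60.7% to 63.7% of the bars with the knockout label and 47.9% to 50.3% in controls, and the Atp2a2 segment 73.7% to 81.1% and 67.5% to 69.9%.

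The promoters of genes that fell are shown for the letters they hold. RefSeq gives a window of 250 bases before to 50 bases after the start site (build GRCm38.p6) for 7 of the 10 genes; Atp2a2, Itpr1 and Saraf have no entry. The 3 below belong to the called genes with the lowest adjusted p among those 7, and capitals mark GC boxes (GGGCGG) and CCAAT boxes (CCAAT), read on both strands. Itpr2 is at chr6:146502174-146502473 (minus strand), Atp2a3 at chr11:72960919-72961218 (plus strand) and Orai1 at chr5:123014824-123015123 (plus strand).
Itpr2: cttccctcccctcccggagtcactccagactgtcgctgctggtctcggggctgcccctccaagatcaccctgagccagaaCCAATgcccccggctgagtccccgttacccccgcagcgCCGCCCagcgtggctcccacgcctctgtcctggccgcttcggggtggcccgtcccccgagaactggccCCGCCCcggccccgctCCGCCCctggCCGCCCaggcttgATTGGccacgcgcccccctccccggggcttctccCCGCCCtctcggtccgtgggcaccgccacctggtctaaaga
Atp2a3: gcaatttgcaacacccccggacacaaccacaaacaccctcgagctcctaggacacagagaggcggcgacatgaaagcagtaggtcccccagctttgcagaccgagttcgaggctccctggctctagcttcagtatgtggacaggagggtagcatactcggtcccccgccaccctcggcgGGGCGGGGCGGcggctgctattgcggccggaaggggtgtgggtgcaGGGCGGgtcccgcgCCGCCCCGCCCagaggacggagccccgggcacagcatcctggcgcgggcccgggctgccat
Orai1: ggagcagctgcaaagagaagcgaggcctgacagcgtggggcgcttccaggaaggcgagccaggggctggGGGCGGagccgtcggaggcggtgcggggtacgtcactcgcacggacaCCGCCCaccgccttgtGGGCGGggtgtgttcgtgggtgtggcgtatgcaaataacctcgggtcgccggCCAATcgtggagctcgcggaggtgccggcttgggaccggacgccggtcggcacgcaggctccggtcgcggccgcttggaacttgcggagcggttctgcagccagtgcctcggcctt
The Itpr2 window holds 5 GC boxes and 2 CCAAT boxes. The Atp2a3 window holds 5 GC boxes, of which 2 pairs share a base, and the Orai1 window 3 GC boxes and 1 CCAAT box. The 7 windows are 68.3% to 78.7% G and C, against a median of 52.7% over all windows, and the shares below are not adjusted for this. Of the 7 windows, 6 hold a GC box, which 35.7% of 32851 RefSeq promoter windows do, and 3 hold a CCAAT box, against 37.4%. Tmco1 has neither. None of the 7 holds the ER stress element (in 0.119% of all windows), ERSE-II (0.0365%), the core of the unfolded protein response element (TGACGTG, 2.01%), the ATF4-C/EBP element (TGATGCAA, 0.895%) or TATAAA (13.6%), on either strand. Elements held by 2.01% of windows or fewer would seldom occur in any 7 of them, so their absence here tells little. Among 14 genes with an entry that are listed here under calcium-binding proteins of the ER lumen, 4 hold the ER stress element: Calr, Canx, Hsp90b1 and Hspa5. The ER stress element contains a CCAAT box, and a match of letters is a description and not a site.

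SERCA pumps use ATP to move calcium from the cytosol into the ER. Atp2a2 encodes SERCA2, the pump present in nearly all cells (chromosome 5, 122453513 to 122502225, minus strand, mm10). It was at 730, 758 and 573 CPM in knockout-labelled libraries 1, 2 and 3, against 559, 588 and 511 CPM in controls 1, 2 and 3. Libraries 1 and 2 lay above all controls and library 3 lay among them. The log2 fold of 0.31 (SE 0.143) missed the threshold (edgeR adjusted p = 0.12). It passed with the replicate block (log2 fold 0.30, edgeR adjusted p = 0.034), with DESeq2 (adjusted p = 0.0418), without knockout-labelled library 3 (log2 fold 0.43, edgeR adjusted p = 0.0135) and also with library-size scaling (log2 fold 0.57, or 0.293 relative to the median gene).

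Atp2a3 encodes SERCA3, a pump of lower calcium affinity found in blood cells, endothelium and some epithelia (chromosome 11, 72961169 to 72993044, plus strand, mm10). It was at 149, 153 and 178 CPM in knockout-labelled libraries 1, 2 and 3, against 219, 221 and 213 CPM in controls 1, 2 and 3. The controls lay within a narrow band and every knockout-labelled library was below it. The log2 fold was -0.45 with an SE of 0.102 (edgeR adjusted p = 0.0136). The call ended without control 2, knockout-labelled library 1 or knockout-labelled library 2 (edgeR adjusted p = 0.0563, 0.063 and 0.0676) and also with library-size scaling (log2 fold -0.18, or -0.459 relative to the median gene). Leukocyte markers other than Lyz1 were highest in knockout-labelled library 3, the one with the most Atp2a3 of its group. With Lyz1 the list summed to 1856 CPM there, below every control. That sum is nearly all Lyz1 and so does not measure leukocytes as a group. Without knockout-labelled library 3 the log2 fold of Atp2a3 was -0.53, and the part of other cell types in its level was not tested. Endothelial markers summed to 851, 885 and 548 CPM in knockout-labelled libraries 1, 2 and 3, against 606, 598 and 556 CPM in controls 1, 2 and 3. In that list library 3 was the lowest of its group, where Atp2a3 was highest. Platelet markers summed to 5.34 to 8.79 CPM with the knockout label and 4.80 to 6.33 CPM in controls.

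Between the pumps, Atp2a2 took 81.0%, 81.1% and 73.7% of SERCA transcript per kb in knockout-labelled libraries 1, 2 and 3, against 68.9%, 69.9% and 67.5% in controls 1, 2 and 3. These shares did not overlap. The summed SERCA level did, at 148, 154 and 128 CPM per kb with the knockout label and 133, 139 and 124 CPM per kb in controls. The ratio of Atp2a2 to summed IP3 receptor transcript, both per kb, was 12.4, 11.3 and 6.29 in knockout-labelled libraries and 5.35, 4.70 and 3.84 in controls, again without overlap.

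Stim1 encodes the main sensor of store depletion (chromosome 7, 102267806 to 102437319, plus strand, mm10) and was at 117, 114 and 132 CPM in knockout-labelled libraries 1, 2 and 3, against 143, 135 and 124 CPM in controls 1, 2 and 3. The groups overlapped, and the log2 fold was -0.14 with an SE of 0.1 (edgeR adjusted p = 0.298). With library-size scaling the sign turned (log2 fold 0.12, edgeR adjusted p = 0.382). Stim2, a sensor that responds to smaller losses of calcium (chromosome 5, 53998499 to 54121057, plus strand, mm10), was at 28.6, 30.7 and 33.7 CPM in knockout-labelled libraries, against 37.0, 39.5 and 34.6 CPM in controls. The groups were separate by a narrow margin, and the log2 fold of -0.26 with an SE of 0.0971 (edgeR adjusted p = 0.0738) missed the threshold but passed it without knockout-labelled library 3 (edgeR adjusted p = 0.0241). With library-size scaling it was 0.0066 (edgeR adjusted p = 0.969). Stim1 held 67.0%, 64.8% and 65.9% of STIM transcript per kb with the knockout label, against 65.6%, 62.8% and 63.9% in controls, and these shares overlapped.

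Orai1 encodes the pore subunit of the store-operated channel (chromosome 5, 123015074 to 123030456, plus strand, mm10). It was at 27.5, 26.6 and 28.0 CPM in knockout-labelled libraries 1, 2 and 3, against 35.3, 33.5 and 31.8 CPM in controls 1, 2 and 3. The groups were separate and the knockout-labelled libraries lay close together. The log2 fold was -0.29 with an SE of 0.0814 (edgeR adjusted p = 0.0269), and the call held in 2 of 6 fits with 1 library left out. It ended without control 1, control 2, knockout-labelled library 1 or knockout-labelled library 2 (edgeR adjusted p = 0.072, 0.0867, 0.0887 and 0.112), with upper-quartile factors (edgeR adjusted p = 0.0632) and also with library-size scaling, where the log2 fold was -0.03, or -0.307 relative to the median gene.

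Saraf encodes an ER membrane protein that switches store-operated entry off by acting on STIM1 (chromosome 8, 34154575 to 34170821, plus strand, mm10). It was at 274, 262 and 195 CPM in knockout-labelled libraries 1, 2 and 3, against 220, 205 and 170 CPM in controls 1, 2 and 3. Library 3 was the lowest of its group and control 3 the lowest of the controls. The log2 fold of 0.30 with an SE of 0.16 (edgeR adjusted p = 0.177) missed the threshold. It passed with the replicate block (log2 fold 0.29, edgeR adjusted p = 0.0213), without knockout-labelled library 3 (log2 fold 0.44, edgeR adjusted p = 0.0251) and also with library-size scaling (log2 fold 0.56, edgeR adjusted p = 0.0123). Saraf over Stim1, both per kb, was 8.27, 8.14 and 5.23 with the knockout label and 5.45, 5.38 and 4.85 in controls, with library 3 inside the control range.

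Tmco1 encodes an ER membrane protein described as a leak channel that opens when the store is overfull, and as a part of a ribosome-bound translocon (chromosome 1, 167308378 to 167333978, plus strand, mm10). It was at 55.2, 54.1 and 51.6 CPM in knockout-labelled libraries 1, 2 and 3, against 70.9, 62.5 and 60.6 CPM in controls 1, 2 and 3. The groups were separate. The log2 fold was -0.27 (SE 0.0899) and just passed the threshold (edgeR adjusted p = 0.0484). The call held in 1 of 6 fits with 1 library left out, the fit without control 3, and ended without each of the others (edgeR adjusted p = 0.0656 to 0.135). It also ended with limma-voom (adjusted p = 0.0536), without a filter (edgeR adjusted p = 0.0801), with the 5 CPM filter (edgeR adjusted p = 0.0507), with the DESeq2 size factors (edgeR adjusted p = 0.0556), with upper-quartile factors (edgeR adjusted p = 0.114) and also with library-size scaling (log2 fold -0.01, edgeR adjusted p = 0.918).

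**Figure D3:**
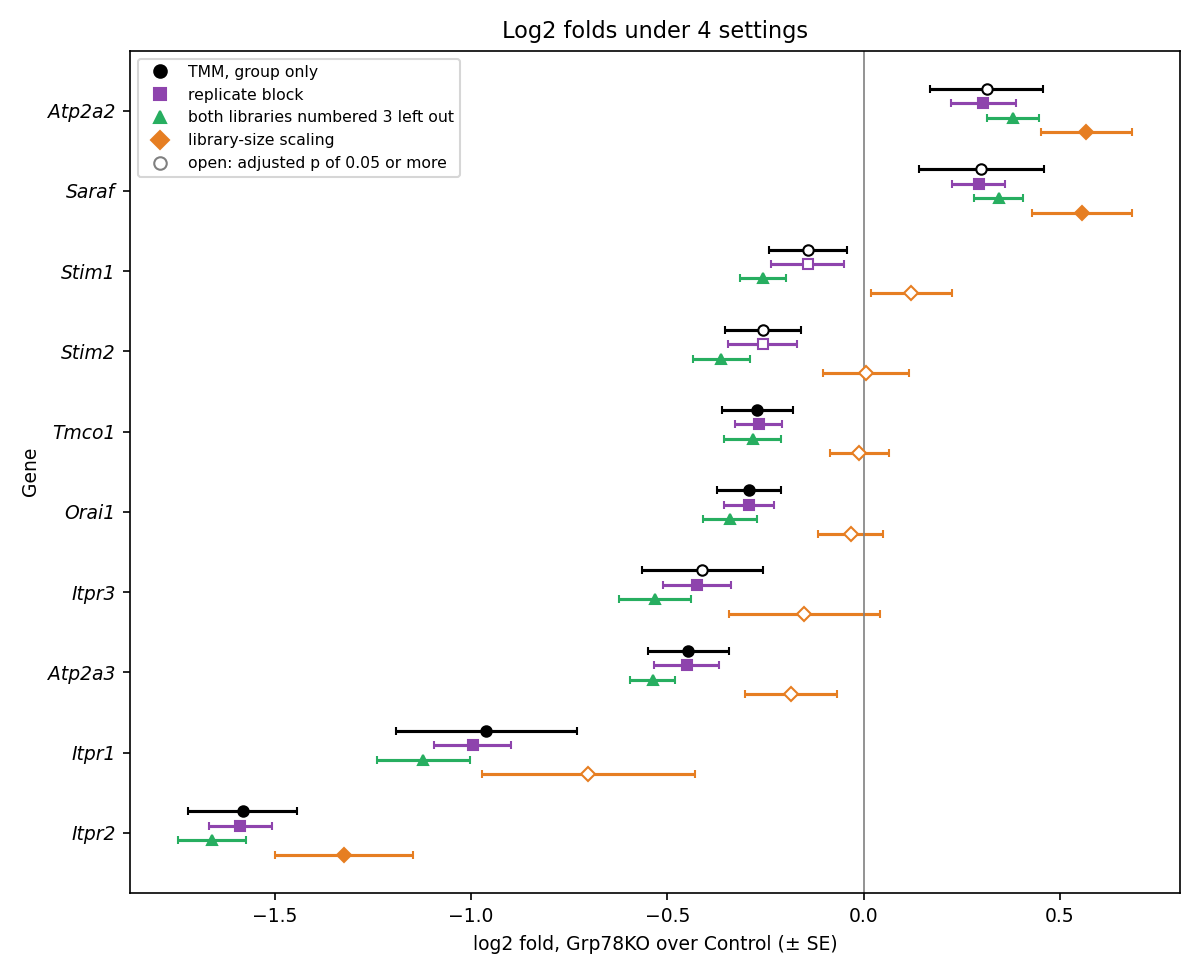
Log2 fold (x axis, knockout-labelled over control libraries, bars ± SE) of each gene (y axis) under 4 settings, filled where the adjusted p was under 0.05. Itpr2 is filled under all 4, between -1.66 and -1.32, while Stim1 and Stim2 cross 0 with library-size scaling.

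By level, the order of the 10 genes was led by Atp2a2, at 113 ± 16.4 CPM per kb with the knockout label and 90.9 ± 6.43 in controls (SD, n = 3 each). Saraf followed at 83.2 ± 14.5 and 67.6 ± 8.72 CPM per kb, then Atp2a3 at 30.3 ± 2.93 and 41.2 ± 0.733 CPM per kb. Orai1, Tmco1 and Stim1 lay together at 11.3 to 11.9 CPM per kb with the knockout label and 12.9 to 14.6 in controls, and their neighbours in the order overlapped between libraries in both groups. Itpr3 came next (7.39 ± 1.52 and 9.83 ± 1.02 CPM per kb), then Stim2 (6.04 ± 0.505 and 7.21 ± 0.477), Itpr1 (3.21 ± 1.04 and 6.26 ± 1.05) and Itpr2 (1.27 ± 0.206 and 3.81 ± 0.394). Itpr3 and Stim2 overlapped with the knockout label, Stim2 and Itpr1 in controls, and Itpr1 was separate from Itpr2 in both. The order depends on the length used, since merged exons span 18319 bases for Itpr1 and 10371 for Stim1, while their longest transcripts have 9870 and 4362. With the longest transcript as length, Stim1 took rank 4 in both groups, and Itpr1 rank 7 in controls and rank 9 with the knockout label. Atp2a2, Itpr1, Itpr3 and Orai1 share exon bases with an opposite-strand gene, over at most 2.58% of their own, and those genes were at 0.0961 CPM or less in every library.

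Over the 6 libraries, the log2 CPM of Itpr2 was most like that of Topors (Pearson r = 0.9994), Srebf2 (r = 0.9992) and Kctd2 (r = 0.9992) among 9424 genes at or above the median level, as a description. Srebf2, which encodes a transcription factor of sterol synthesis genes, was at 182, 185 and 215 CPM with the knockout label and 356, 375 and 397 CPM in controls. Such likeness was common, with r over 0.95 for 1485 of these genes, since the libraries share the 2 groups and their scaling.

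The counts in the 8 lists of other calcium-handling genes are to be read against the 36.8% of all genes tested that were called, 18% higher and 18.8% lower. Of 18 genes of phospholipase C, IP3 metabolism and purinergic receptors, 6 fell and 2 rose (44.4% called, near that share), with a median log2 fold of -0.098. Without control 2 or knockout-labelled library 1 or 2, 2 fell and 0 rose, and without control 1 or control 3, 4 fell and 1 rose. Plcg1, a phospholipase C activated by tyrosine kinases, was at 42.6, 45.0 and 54.8 CPM with the knockout label, against 79.0, 90.4 and 120 CPM in controls (log2 fold -1.02, SE 0.171, edgeR adjusted p = 0.00423). Gnaq, the G protein subunit that activates phospholipase C beta, fell by 0.66 on the log2 scale (edgeR adjusted p = 0.00502), a call lost when libraries were scaled by size (adjusted p = 0.0684), and Plcd1 rose by 0.75 on that scale (edgeR adjusted p = 0.0178), the last losing its call without control 1, control 2 or knockout-labelled library 1 or 2. Of 17 tested regulators of SERCA pumps and IP3 receptors, 2 rose and 2 fell (23.5% called), with a median of 0.078. Without knockout-labelled library 3, 5 rose, without control 3 or knockout-labelled library 1, 1 rose, and without control 2 or knockout-labelled library 2, 0 rose. Ahcyl1 encodes IRBIT, which competes with IP3 for the receptor, and Ahcyl2 its close relative. Ahcyl2 was at 155, 164 and 208 CPM with the knockout label, against 495, 510 and 470 CPM in controls (log2 fold -1.48, SE 0.138, edgeR adjusted p = 0.000656), and Ahcyl1 fell by 0.51 on that scale (edgeR adjusted p = 0.00397). Both calls held with each library left out, and that of Ahcyl1 ended with library-size scaling (edgeR adjusted p = 0.0749). Mrvi1, which encodes the IP3 receptor-associated substrate of cGMP kinase, rose by a log2 fold of 0.97, at 0.985 CPM or less in every library, and its call ended without control 2 or knockout-labelled library 2.

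Of 17 tested store-operated entry genes beyond the 10, 6 fell and 2 rose (47.1% called, median log2 fold -0.0087). Tmem110, also called Stimate, encodes an ER protein that promotes STIM1 activation, and was at 54.7, 53.6 and 64.0 CPM with the knockout label, against 130, 127 and 136 CPM in controls (log2 fold -1.19, SE 0.0981, edgeR adjusted p = 0.000489). Tmem178, whose protein restrains store-operated entry through STIM1 in osteoclast precursors, fell by 1.38 on the log2 scale (edgeR adjusted p = 0.00046). Orai2, a close relative of Orai1 that forms channels of its own and with Orai1, went the other way, at 35.3, 39.5 and 31.7 CPM with the knockout label and 15.4, 16.0 and 20.8 CPM in controls (log2 fold 1.03, SE 0.142, edgeR adjusted p = 0.0022). All 3 calls held with each library left out and with library-size scaling.

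Of 11 other ER calcium channels and pumps, 2 rose and 2 fell (36.4% called, near the share of all genes; median log2 fold -0.096). Tmem38a, a counter-ion channel of the ER, rose by 0.45 on the log2 scale (edgeR adjusted p = 0.0157), and Pkd2, a cation channel of the ER and cilium, fell by 0.49 (edgeR adjusted p = 0.0212). Without control 2 or knockout-labelled library 1 or 2, 0 of this list rose and 0 fell. Without control 1, 1 rose, and without control 3, 1 rose and 0 fell. With library-size scaling 3 rose and 0 fell. Of 10 pumps and exchangers of the plasma membrane and Golgi, 2 rose and 3 fell (50% called, median 0.051), and 1 rose when any library other than knockout-labelled library 3 was left out. They included Atp2c1, the Golgi calcium and manganese pump (log2 fold -0.57, edgeR adjusted p = 0.00254), Atp2b4 (0.67, edgeR adjusted p = 0.0027) and Atp2b2 (-1.09, edgeR adjusted p = 0.00344), and the Atp2b genes encode calcium pumps of the plasma membrane.

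Genes listed here under calcium-binding proteins of the ER lumen were called in 1 direction. Of 15 tested, 10 rose and 0 fell (66.7% called), and the median log2 fold of the list was 0.56. Both the list and the 10 that rose include Hspa5, the gene of Grp78. Not all of the listed proteins are confined to the ER lumen, and Canx, Nucb1 and Nucb2 are among the 10 that rose. DESeq2 and limma-voom also called 0 lower, as did an unadjusted p under 0.05. The number that rose was 5 without control 2, knockout-labelled library 1 or knockout-labelled library 2, and 6 without control 3. Calr, the calreticulin gene and a main calcium buffer of the store, had a mean of 2459 ± 824 CPM with the knockout label and 702 ± 54.1 CPM in controls (SD, n = 3 each; log2 fold 1.81, edgeR adjusted p = 0.00255). Of 12 genes of mitochondrial calcium uptake and export, 4 rose and 0 fell (33.3% called, near the share of all genes; median 0.19; 0 fell with DESeq2, with limma-voom and at an unadjusted p under 0.05). They included Vdac3 (log2 fold 0.80), Vdac1 (0.37) and Mcu, the pore of the uniporter (0.25), the last named after its values were seen. Without control 1, 2 rose, and without control 2, control 3 or knockout-labelled library 1 or 2, 1 rose. Of 11 calcineurin and NFAT genes, 3 rose and 1 fell (36.4% called, likewise near it; median -0.014), with 3 lower under the replicate block and without knockout-labelled library 3, and 0 lower without control 2 or knockout-labelled library 1 or 2. Rcan1, a calcineurin inhibitor whose transcription NFAT drives, was at 112, 111 and 67.9 CPM with the knockout label and 35.4, 35.02 and 30.7 CPM in controls (log2 fold 1.52, SE 0.193, edgeR adjusted p = 0.00153), Rcan3 had a log2 fold of 0.71 and Ppp3cc, a calcineurin catalytic subunit, one of 0.91.

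**Figure D4:**
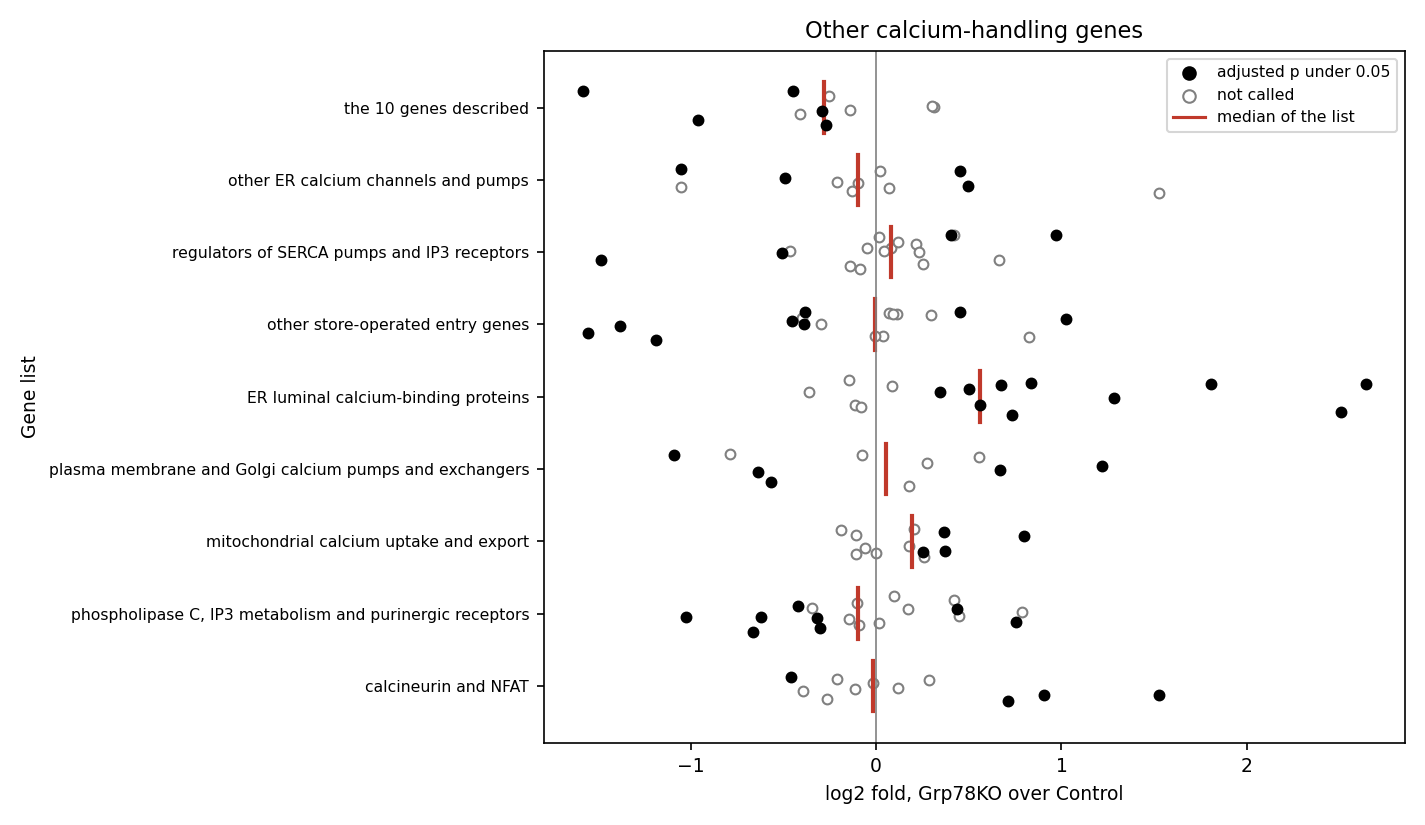
Log2 fold (x axis, knockout-labelled over control libraries) of every tested gene in 8 calcium-handling lists and the 10 genes described (y axis), filled where called, with each list's median as a red line. The list of ER luminal proteins has its median at 0.56 and the 10 genes described at -0.28.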

How the data were processed

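RNA was sequenced from 6 AT2 libraries, 3 per group. Per the labels' protocols these were NEBNext Ultra libraries. The authors deposited raw counts per gene symbol; the submitters' processing notes name mm10 and edgeR 3.7, and no source used here gives the aligner, counter or annotation. The kit label states no strand, so genes that overlap on opposite strands cannot be told apart. In each library 1.63 to 1.76 times as many genes had 2 counts as had 1. Counting both mates of a pair could give such an excess, which was not tested. Counting errors may then exceed those the counts imply.

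The main test was edgeR 4.0.16 in R 4.3.3 (filterByExpr, TMM, robust dispersions, quasi-likelihood F test, group only) over the whole table, with Benjamini-Hochberg adjustment over 18849 genes. SE is the log2 fold over the square root of F. The code was checked on simulated data with 200 changed genes. CPM per kb used merged exons of GENCODE M21, in which 48018 of 52550 symbols had a match, and coordinates are from it. Alternatives were DESeq2 1.42.0, limma-voom (limma 3.58.1), other scalings and filters, the replicate block and leaving out libraries. Deviations from group means correlated at 0.35, 0.2 and 0.329 between libraries of the same number, from the titles, all over 0.1; libraries numbered 1 and 2 also correlated across numbers (0.154 and 0.171). Library 3 of each group correlated at -0.35 to -0.211 with libraries 1 and 2 of the other group. These values set number 3 apart from numbers 1 and 2 more than they show pairs. The block fit treated the numbers as pairs on this ground, taken from the same data, so calls that it adds rest on an unproven pairing.

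The 10 genes, the lists and the alternatives were chosen with earlier results of these data known. Named genes are the 10, Hspa5, the 3 members per list of lowest adjusted p, the 3 most like Itpr2, and defining markers; genes outside this rule are marked as chosen after their values were seen, and some genes the rule takes are not reported here.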

Additional observations from a re-analysis of the deposited data

How the results depend on the processing

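Itpr2 kept its call under every alternative run. Library-size scaling moved the median gene by 0.26 on the log2 scale and called 6218 genes higher and 1343 lower, 82.2% higher against 48.9% with TMM and 59.2% for upper-quartile factors. It gave log2 folds of -0.185 for Atp2a3, -0.701 for Itpr1, -0.033 for Orai1 and -0.0114 for Tmco1, none of them called, 0.567 for Atp2a2 and 0.557 for Saraf, both called, and reversed Stim1 (0.121) and Stim2 (0.00656), neither called. The 10 genes then numbered 2 higher and 1 lower, mitochondrial genes 8 higher, store-operated entry genes 5 higher and 3 lower, phospholipase C genes 5 higher and 1 lower, plasma membrane and Golgi pumps 4 higher, regulators 9 higher and 1 lower, and 0 calcineurin genes and 0 other ER channels were lower. These shifts follow from the scaling itself. With upper-quartile factors the call ended for Orai1 (-0.219) and Tmco1 (-0.197), 3 of the 10 genes and 3 phospholipase C genes were lower and 5 regulators higher.

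The call of Tmco1 also ended with DESeq2 size factors (-0.257), the 5 CPM filter (-0.232), limma-voom (-0.268) and no filter (-0.274). Without a filter 2 mitochondrial genes and 1 plasma membrane or Golgi pump were higher and 1 other ER channel lower. With the 5 CPM filter 5 regulators were higher. DESeq2 called Atp2a2 (0.326), making 1 of the 10 higher, with 5 regulators higher and 2 calcineurin genes lower. With the replicate block Atp2a2 (0.305), Itpr3 (-0.425) and Saraf (0.293) were called, 2 of the 10 were higher, 4 regulators higher, 3 calcineurin genes lower and 4 other ER channels lower; it changed no other call among the 10 genes. Without both libraries numbered 3, 5355 genes were called higher; Atp2a2 (0.38), Itpr3 (-0.532), Saraf (0.344), Stim1 (-0.255) and Stim2 (-0.363) were called, making 2 of the 10 higher and 8 lower. Regulators were then 6 higher and 4 lower, with 4 calcineurin genes and 5 other ER channels lower. The cause of these differences was not tested.

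With 1 library left out, log2 folds ran from 0.237 to 0.428 for Atp2a2, -0.529 to -0.398 for Atp2a3, -1.25 to -0.783 for Itpr1, -0.588 to -0.296 for Itpr3, -0.321 to -0.2003 for Stim2, -0.335 to -0.265 for Orai1, 0.197 to 0.437 for Saraf and -0.32 to -0.21 for Tmco1. Genes called higher ran from 1684 to 4242 and lower from 1881 to 4306. Of the 10, 0 to 2 were higher and 1 to 6 lower. Counts of list members ran from 5 to 10 higher for luminal proteins, 0 to 3 lower for calcineurin, 1 to 5 higher for mitochondria, 0 to 2 higher and 0 to 3 lower for other ER channels, 4 to 7 lower for store-operated entry, 0 to 3 higher and 2 to 8 lower for phospholipase C, 1 to 2 higher for pumps and exchangers, and 0 to 5 higher and 2 to 3 lower for regulators. Changes in the shares of Itpr1, Itpr2, Itpr3, Atp2a2 and Stim1 in their families kept their direction with each library left out and on CPM not divided by length. On CPM not divided by length, however, the Itpr1 shares of the groups overlapped. With the longest transcript as length, 8 of 10 genes kept their place in the order with the knockout label and 4 in controls. At these depths each of the 10 genes had over 2000 counts per library, so the spread between libraries, with a common biological coefficient of variation of 22.3%, limits the comparison.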

Other observations

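Some genes of the lists that the naming rule did not take were chosen after their values were seen. Cracr2a, whose protein binds ORAI1 and STIM1 in T cells, was at 13.6, 16.0 and 28.0 CPM in knockout-labelled libraries 1, 2 and 3, against 43.2, 51.8 and 74.0 CPM in controls 1, 2 and 3. It fell by 1.55 on the log2 scale (SE 0.313, edgeR adjusted p = 0.00973), and the call held with each library left out and with library-size scaling. Its relative Cracr2b fell by 0.38 on that scale (edgeR adjusted p = 0.0163), a call that ended without control 2 or knockout-labelled library 1 or 2.

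P2rx4 encodes an ATP-gated calcium channel known from the lamellar bodies of rat AT2 cells. It was at 73.8, 73.3 and 87.8 CPM with the knockout label, against 99.6, 98.3 and 95.0 CPM in controls (log2 fold -0.32, SE 0.0973, edgeR adjusted p = 0.0371), and this call ended without control 1, control 2 or knockout-labelled library 1 or 2. P2ry2, the receptor through which ATP raises IP3 in AT2 cells, was at 17.0, 16.4 and 21.01 CPM with the knockout label and 18.6, 20.5 and 21.2 CPM in controls, with the groups overlapping (log2 fold -0.15, edgeR adjusted p = 0.36). Orai3, the third ORAI gene, was at 36.6, 35.3 and 35.4 CPM, against 49.6, 44.1 and 38.1 CPM in controls (log2 fold -0.30, SE 0.108, edgeR adjusted p = 0.0645).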
